A study of Mus musculus with 29 samples.

Results

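The comparison described here sets Ly6Clow against Ly6Chi macrophages of the wild-type mouse spleen. Its members are the 6 samples that the labels give as splenic, wild-type and either Ly6Chi or Ly6Clow, 3 of each subset, out of 29 samples in the series. The study examined macrophages in mice that lack RNase T2, and the wild-type samples are its reference. Both subsets came from untreated wild-type C57BL/6 mice, for which the study lists both sexes and no age. The levels of Xist and of Y-linked genes, given below with the liver, had the pattern of female cells in all 6 samples. Splenocytes were first depleted of lymphocytes, natural killer cells, neutrophils and erythroid cells with antibodies, among them ones to CD3, NK1.1, Ly6G and TER-119. The sorted cells were CD11b+, Ly6G-, SiglecF- and NK1.1-, and were collected right after sorting as Ly6Chi cells low for CD16.2 or as Ly6Clow cells positive for CD16.2, the Fc receptor encoded by Fcgr4. The study's methods speak of splenic monocytes as well as macrophages for these gates. The sources used here do not say whether the 3 samples of a subset came from separate mice, so p-values measure the spread between these samples, which may be technical.

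In the mouse, Ly6Chi or classical monocytes leave the bone marrow by way of the chemokine receptor CCR2, circulate, and can be recruited into inflamed tissue. Some of them convert into Ly6Clow or patrolling monocytes, which crawl along the vessel wall and depend on the nuclear receptor NR4A1. The spleen holds both subsets and a reservoir of undifferentiated monocytes, and in some settings it also makes myeloid cells itself. The comparison asks which genes separate the subsets in a wild-type spleen.

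RNA levels were read by Ion AmpliSeq Transcriptome sequencing, in which each gene has its own fixed amplicon, so levels are compared between samples and not between genes. Values are RPM, a sample's reads of a gene scaled to a fixed total of reads, for 23930 genes. Each sample held 14237202 to 14572065 reads, and the limit of 3 reads, taken as the smallest detectable level, was 0.206 to 0.211 RPM, which covers counting error only. Genes that reached 1 RPM in 3 or more of the 6 samples entered the limma test on log2(scaled RPM + 1), and a gene was called at >1.5-fold with an adjusted p below 0.05. The added 1 makes the fold changes of low genes smaller than the ratio of their RPM. One sample stood apart. Ly6Clow replicate 2 differed from the other Ly6Clow samples by a mean chi-square per gene of 33.24 and 23.36, against 10.43 between those 2 and 5.91 to 8.3 among the Ly6Chi samples. Without it, 1342 genes were higher and 2039 lower, in place of the 1451 and 2080 given next.

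Among the genes behind the sorting antibodies, Fcgr4 was separated as sorted, which is a check of the labels and not a finding. Fcgr4 was at 40.6, 32.1 and 35.6 RPM in the Ly6Chi samples and at 781, 769 and 821 RPM in the Ly6Clow samples. Itgam, which encodes CD11b, was at 1753 to 1819 RPM in Ly6Chi and 1754 to 2166 RPM in Ly6Clow samples, and the ranges overlapped. Ptprc (CD45) rose by 1.00 and Adgre1 (F4/80) by 0.87 on the log2 scale. Genes of antigens used to remove cells were still read, at higher levels in the Ly6Chi samples. Klrb1c (NK1.1) was at 128 to 144 RPM in Ly6Chi and 20.9 to 37.0 RPM in Ly6Clow samples, Ly6g at 29.2 to 33.5 and 4.61 to 7.96 RPM, and Siglecf at 3.47 to 6.02 and 0.559 to 1.03 RPM. The Ly6c genes were not analysed here.

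The subsets differed widely. Ly6Clow macrophages had higher levels of 1451 (13.8%) and lower levels of 2080 (19.8%) of the 10521 genes tested. At >4-fold these were 133 and 396 genes, and at >16-fold 13 and 21 genes. In RPM as deposited, every Ly6Clow sample lay above every Ly6Chi sample in 2270 genes (21.6%). Every Ly6Clow sample lay below in 4088 genes (38.9%), and both counts carry the shift of the unscaled values given next. The balance of the directions depended on the scaling. With RPM as deposited, the median log2 fold change over all genes was -0.13 in place of 0.006, and 1060 genes were higher and 2494 lower, so that higher genes made up 29.83% of the calls in place of 41.09%.

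**Figure D1:**
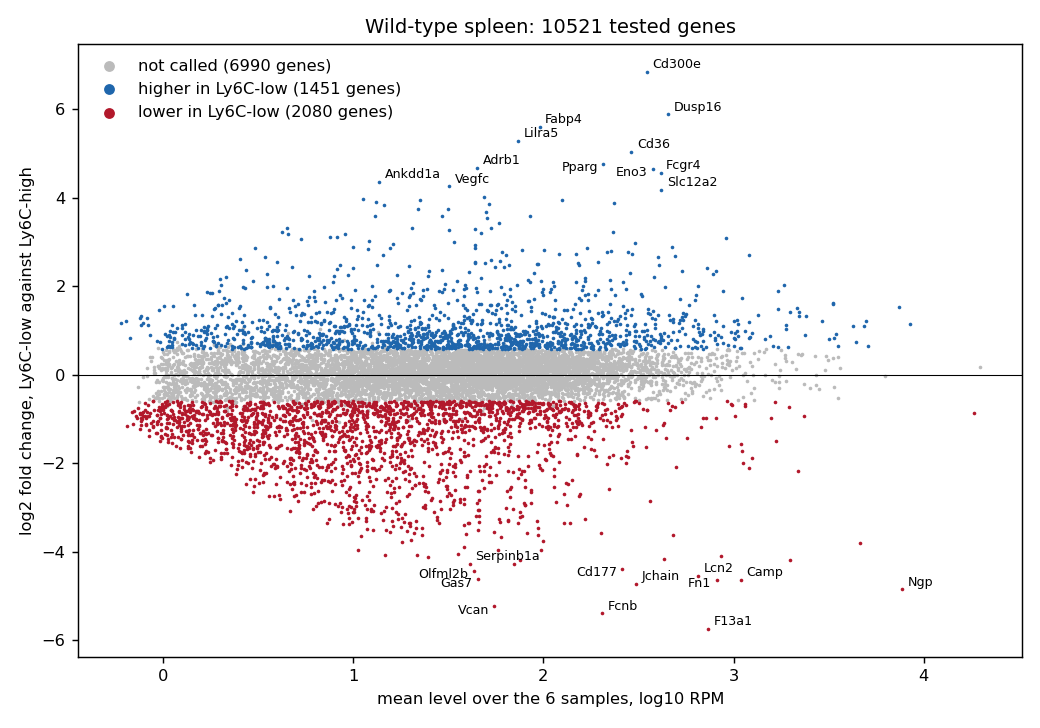
Each point is 1 of the 10521 tested genes, with its mean RPM over the 6 samples (log10, x axis) and its log2 fold change, Ly6Clow against Ly6Chi (y axis). Blue points are the 1451 genes called higher and red points the 2080 genes called lower, and the named genes are the 12 highest and 12 lowest, with Cd300e at the top (6.84) and F13a1 at the bottom (-5.74).

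The gene that rose most in Ly6Clow macrophages was Cd300e, an activating receptor of the CD300 family on monocytes. It was read at 4.09, 6.52 and 6.79 RPM in the Ly6Chi samples and at 713, 665 and 717 RPM in the Ly6Clow samples, a log2 fold change of 6.84 ± 0.149 (SE, adjusted p = 7.79e-10). Cd300e lies at chr11:115051917-115062177 (mm10, minus strand), within a cluster of CD300 family genes. Next came Dusp16, a phosphatase that acts on MAP kinases, which was at 15.1, 17.6 and 14.4 RPM in Ly6Chi samples. In the Ly6Clow samples Dusp16 was at 912, 942 and 813 RPM (5.88 ± 0.103, adjusted p = 2.42e-10). The fatty acid carrier Fabp4 went from 4.37, 1.80 and 4.06 RPM to 201, 197 and 165 RPM (5.6 ± 0.218, adjusted p = 3.66e-08). For all 3 genes the lowest Ly6Clow sample was far above the highest Ly6Chi sample.

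The other 9 of the 12 highest genes were of several kinds. Lilra5, a leukocyte immunoglobulin-like receptor, was at 2.84 to 3.43 RPM in Ly6Chi and 140 to 149 RPM in Ly6Clow samples (5.28). The scavenger receptor Cd36, which takes up fatty acids and oxidized lipoproteins, rose from 16.7–18.7 RPM to 522–604 RPM (5.04). Pparg, the nuclear receptor that activates Fabp4 and Cd36 in other cells, rose from 14.7–15.4 to 378–432 RPM (4.77 ± 0.091, adjusted p = 3.56e-10). The 12 also held the beta-1 adrenergic receptor Adrb1 (4.67), the muscle-type enolase Eno3 (4.66), the sorting gene Fcgr4 (4.57), Ankdd1a (4.36), the lymphangiogenic growth factor Vegfc (4.26) and the ion cotransporter Slc12a2 (4.18). Vegfc was at 2.08 to 3.43 RPM in Ly6Chi samples and 55.5 to 71.6 RPM in Ly6Clow samples. None of these 12 genes had overlapping groups, which the naming rule required.

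The 12 genes that fell most included secreted and matrix proteins of classical monocytes. F13a1, the A subunit of coagulation factor XIII, was at 1405, 1477 and 1441 RPM in Ly6Chi samples and at 14.5, 46.9 and 18.6 RPM in Ly6Clow samples (-5.74 ± 0.327, adjusted p = 3.32e-07). The proteoglycan Vcan was at 107, 108 and 111 RPM and at 0.909, 2.88 and 1.61 RPM (-5.23 ± 0.226, adjusted p = 6e-08). For fibronectin, Fn1, the values were 1532, 1571 and 1622 RPM and 59.5, 55.7 and 53.7 RPM (-4.64 ± 0.075, adjusted p = 2.04e-10). In F13a1 and Vcan the highest Ly6Clow value was that of replicate 2, whereas the 3 Fn1 values lay close together. Gas7, a cytoskeletal adaptor, fell by 4.62, Olfml2b, an olfactomedin-like secreted protein, by 4.43 and the elastase inhibitor Serpinb1a by 4.27 on the log2 scale.

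The other 6 of the 12 lowest genes are best known from neutrophils and their precursors or from plasma cells. The granule proteins Ngp (-4.84), Camp (-4.64) and Lcn2 (-4.54), the ficolin Fcnb (-5.39) and the neutrophil antigen Cd177 (-4.38) fell with the joining chain of antibodies, Jchain (-4.72). Ngp was at 15666, 16065 and 12962 RPM in Ly6Chi samples and at 405, 753 and 332 RPM in Ly6Clow samples. Jchain was at 627, 553 and 609 RPM and at 27.3, 16 and 16.9 RPM. In bulk samples such as these, fewer cells of a type and less RNA per cell cannot be told apart.

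Classical monocyte genes were mostly lower in Ly6Clow macrophages. Of the list's 34 tested genes (36 listed), 27 fell and 3 rose, and the median log2 fold change was -1.68, against 0.006 over all tested genes. Among receptors, Ccr2 was at 323, 420 and 380 RPM in Ly6Chi samples and at 23.8, 31.9 and 26.9 RPM in Ly6Clow samples (-3.58 ± 0.131, adjusted p = 2.48e-08). The groups did not overlap. Cd93 fell by 3.29, the inflammatory chemokine receptor Ccr1 by 2.19, Ms4a4c by 1.80, the decoy receptor Il1r2 by 1.45 and the C-type lectin Clec4d by 0.62 on the log2 scale. The fall of Clec4d was under the fold threshold without Ly6Chi replicate 2 (-0.55), Ly6Clow replicate 1 (-0.50) or Ly6Clow replicate 3 (-0.58).

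Of the 16 secreted and granule proteins on the list, 15 fell. Thbs1, the adhesive glycoprotein thrombospondin-1, was at 835, 763 and 863 RPM in Ly6Chi and at 35.7, 46.7 and 38.8 RPM in Ly6Clow samples (-4.17). The coagulation factors F5 (-3.09) and F10 (-0.99), haptoglobin, Hp (-1.52), the collagenase Mmp8 (-2.95), the chemokines Ccl9 (-1.56) and Ccl6 (-0.67), and the calcium-binding proteins S100a8 (-4.19) and S100a9 (-3.81) fell as well. The macrophage lysozyme Lyz2 was at 24347 to 24674 RPM in Ly6Chi and 11388 to 13557 RPM in Ly6Clow samples (-0.86). Its paralog Lyz1 was at 39.9 to 42.9 and 34.5 to 44.3 RPM and overlapped (adjusted p = 0.705). Lyz1 and Lyz2 are near copies, and reads could be split between them. Of the 7 intracellular proteins, S100a10 (-2.63), Mgst1 (-1.45), Anxa2 (-0.98) and Plac8 (-0.94) fell. Alox5ap was lower without passing the fold threshold (-0.54), and the NADPH oxidase subunit Cybb was at 1139 to 1350 and 1252 to 1287 RPM.

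The 3 list members that rose were Fpr1, Clec4e and Fpr2. Fpr1, a receptor for bacterial formyl peptides, was at 5.34, 5.48 and 6.23 RPM in Ly6Chi samples and at 29.2, 26.6 and 28.7 RPM in Ly6Clow samples (2.26 ± 0.128, adjusted p = 3.29e-07). Clec4e, the mycobacterial glycolipid receptor Mincle, went from 44.5, 42.2 and 49.6 RPM to 149, 162 and 145 RPM (1.87 ± 0.094, adjusted p = 1.55e-07). The rise of the related receptor Fpr2 was smaller (0.63, adjusted p = 0.0142) and did not pass without Ly6Chi replicate 2 (adjusted p = 0.0588), Ly6Chi replicate 3 (0.54) or Ly6Clow replicate 1 (0.54). The list shares 5 of its 34 genes, Ngp, Camp, S100a8, S100a9 and Mmp8, with the neutrophil list. Without them, 22 of 29 genes fell, 3 rose and the median was -1.45. The neutrophil antigen Cd177 is not on the neutrophil list and stayed among the 29.

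The patrolling monocyte list moved as a group. Of its 29 tested genes (30 listed), 28 rose and 0 fell by limma, with a median log2 fold change of 2.03. The gene that did not pass was Cx3cr1, the fractalkine receptor by which Ly6Clow monocytes are often defined. It was at 70.5, 69.7 and 96.6 RPM in Ly6Chi samples and at 98.0, 66.8 and 122 RPM in Ly6Clow samples, and the groups overlapped (0.39 ± 0.200, adjusted p = 0.124). Without Ly6Clow replicate 2, Cx3cr1 passed as higher (0.63, adjusted p = 0.000828). Spn, the sialophorin CD43 used to stain this subset, rose by 1.55, from 35.3–42.2 to 92.7–110 RPM. Itgal, the alpha chain of LFA-1 by which patrolling cells crawl, went from 1312, 1268 and 1278 RPM to 3525, 2483 and 3412 RPM (1.42 ± 0.123). Treml4 was at 204, 202 and 221 RPM in Ly6Chi and at 1548, 1442 and 1867 RPM in Ly6Clow samples (3.09).

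Beside Cd300e and Cd36, the surface proteins of the list that passed rose between 0.63 and 3.22 on the log2 scale. Among them were Cd300ld (3.22), Itgax (2.89), the checkpoint ligand Cd274 (PD-L1, 2.83), Adgre4 (2.70), the tetraspanin Cd9 (2.69), the angiotensin-converting enzyme Ace (2.41), S1pr5 (2.0), the sphingosine 1-phosphate receptor needed for this subset to leave the marrow, and Ceacam1 (1.90). Cd274 was at 26.8, 25.5 and 27.2 RPM in Ly6Chi samples and at 174, 174 and 178 RPM in Ly6Clow samples, with very little spread. Tnfrsf1b (1.13), Clec4a1 (1.01) and Clec4a3 (0.63) rose least. In Clec4a3 the Ly6Clow replicate 2 value of 145 RPM fell within the Ly6Chi range of 136 to 153 RPM, and its call did not pass without Ly6Chi replicate 1 (adjusted p = 0.0557), Ly6Clow replicate 1 (0.57) or Ly6Clow replicate 3 (0.47). S1pr5 was low in both subsets, at 0.208 to 0.630 RPM in Ly6Chi samples and 3.44 to 7.27 RPM in Ly6Clow samples. Of the intracellular members, Stap1 (2.73), Dusp5 (2.74), Apoe (2.12), Gngt2 (2.03), the survival factor Bcl2 (1.37) and Pglyrp1 (1.00) rose with Eno3 and Fabp4.

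**Figure D2:**
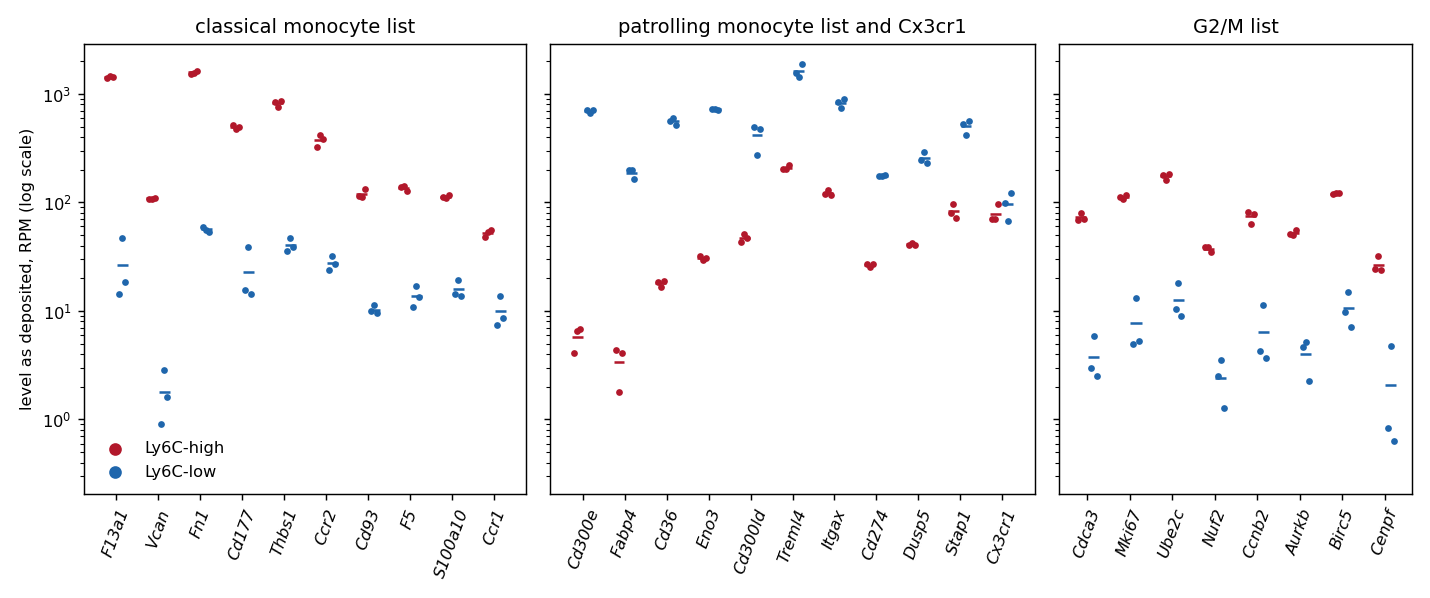
Levels as deposited (RPM, log scale) of the genes with the largest called change in 3 lists, with 1 point per sample and a line at the mean of 3 samples. The classical panel shows genes named in the text and leaves out genes of the neutrophil list, which does not hold Cd177. Cx3cr1 is added to the patrolling panel, and every gene but Cx3cr1 has separate Ly6Chi (red) and Ly6Clow (blue) groups.

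Transcription factors of the lineage moved in both directions, with 15 of 45 tested genes higher and 17 lower. Nr4a1, on which the Ly6Clow subset depends, was at 1804, 1797 and 1765 RPM in Ly6Chi samples and at 5028, 4421 and 5241 RPM in Ly6Clow samples (1.60 ± 0.087, adjusted p = 2.65e-07). Its paralog Nr4a2 fell from 10.6–15.1 to 2.40–3.51 RPM (-1.59). Nr4a3 was at 2.15 to 2.91 and 1.89 to 4.53 RPM and overlapped. Cebpb, which acts upstream of Nr4a1 in this subset, went from 1490, 778 and 1419 RPM to 3446, 2661 and 3118 RPM (1.52 ± 0.212). Pou2f2 (1.44), Klf2 (0.81) and Spi1, which encodes PU.1 (0.84), rose too.

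Among 15 factors of monocytes and progenitors, 7 fell and 3 rose. Spi1, Runx2 and Klf4 were higher. Cebpe, which drives the late steps of granule formation, was at 16.9, 16 and 18.1 RPM in Ly6Chi samples and at 0.699, 0.686 and 0.492 RPM in Ly6Clow samples (-3.37 ± 0.153, adjusted p = 8.48e-08). Gfi1 fell by 2.87, Myb by 1.71, Irf8, which directs monocyte and dendritic cell fate, by 1.43, Cebpa by 1.18 and Cebpd by 0.85 on the log2 scale. Myb was at 95.4 to 107 RPM in Ly6Chi samples and at 21.2, 44.0 and 22.2 RPM in Ly6Clow samples, highest in replicate 2. Klf4 passed narrowly (0.60, adjusted p = 0.0303). Its Ly6Clow replicate 2 value of 481 RPM lay below all Ly6Chi values of 511 to 557 RPM, and the call did not pass with any of the other 5 samples left out (adjusted p = 0.0757 to 0.104).

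Nuclear receptors and activation factors also moved both ways. The liver X receptor Nr1h3 was at 10.5, 9.78 and 12.3 RPM in Ly6Chi samples and at 36.3, 32.0 and 38.7 RPM in Ly6Clow samples (1.77 ± 0.131, adjusted p = 2.02e-06). Its partner Rxra fell from 239–257 to 112–151 RPM (-0.79), and the other liver X receptor, Nr1h2, rose by 0.88. Hes1, a target of Notch signalling, was at 34.7 to 42.2 RPM and at 153 to 158 RPM (2.12). Bcl6 (1.78), Runx2 (1.59), Stat3 (0.85) and Tfeb (0.77) rose. Tfec (-3.0), Irf4 (-1.78), Mitf (-1.61), Batf3 (-1.37), Maf (-1.17), Id3 (-0.75) and Atf3 (-0.66) fell.

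Cell cycle genes were lower in Ly6Clow macrophages. Of 51 tested G2/M genes (54 listed), 41 fell and 2 rose, with a median log2 fold change of -2.36. Of 39 tested S phase genes (43 listed), 26 fell and 0 rose by limma, with a median of -0.73. The proliferation antigen Mki67 was at 111, 107 and 116 RPM in Ly6Chi samples and at 4.96, 13 and 5.27 RPM in Ly6Clow samples (-3.66 ± 0.277, adjusted p = 2.26e-06). Cdca3, a trigger of mitotic entry, was at 69.2, 80.1 and 69.9 RPM and at 3.0, 5.83 and 2.53 RPM (-3.88 ± 0.225, adjusted p = 3.71e-07). In both genes the Ly6Clow replicate 2 value was the highest of its group and still far below every Ly6Chi value. Ube2c, the ubiquitin-conjugating enzyme of the anaphase-promoting complex (-3.62), the kinetochore protein Nuf2 (-3.42), cyclin B2, Ccnb2 (-3.36), and the kinase Aurkb (-3.34) fell as well.

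Among S phase genes, the largest falls were of E2f8 (-3.19), the ribonucleotide reductase subunit Rrm2 (-2.90), cyclin E2, Ccne2 (-2.65), Uhrf1 (-2.63), Cdca7 (-2.54) and thymidylate synthase, Tyms (-2.17). Rrm2 was at 147, 138 and 135 RPM in Ly6Chi samples and at 11.7, 27.7 and 12.7 RPM in Ly6Clow samples. The 2 G2/M genes that rose, named for their number, were Hn1 (0.96) and the centromere chaperone Hjurp (0.59), which lay at the fold threshold and did not pass without Ly6Chi replicate 3 (0.58) or Ly6Clow replicate 2 (0.57). Markers of progenitors were high in the same samples as the cell cycle genes. The 9 progenitor markers, of which 8 fell, summed to 432 to 454 RPM in Ly6Chi samples and 53.9 to 110 RPM in Ly6Clow samples. Their part in the cell cycle values was not tested. Elane, Mpo and Prtn3 of these 9 are also on the neutrophil list. Without Ly6Clow replicate 2, which had the highest progenitor sum of its group, 42 G2/M and 25 S phase genes fell.

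Promoters of the G2/M genes shared short motifs. The windows run from 250 bases before to 50 after each start in RefSeq (GRCm38.p6), and 44 of the 51 tested genes had an entry, with 49 windows. The cell cycle homology element TTTGAA, searched on both strands, was in 67.3% of these windows, against 17.9% of all 32851 windows and 12.2% of those of tested genes. CCAAT was in 73.5%, against 37.4% and 37.3%. In 31 windows of S phase genes, CCAAT was in 67.7%, the E2F-like motif TTNGCGC in 32.3% and TTTGAA in 12.9%, where TTNGCGC was in 6.36% of all windows and 10.8% of those of tested genes. These are matches of letters, not sites of binding. The windows of the 4 G2/M genes with the largest falls are shown so that the shared motifs can be seen, with TTTGAA and CCAAT, or their reverse complements, in capitals.
Cdca3 (chr6:124829926-124830225, plus strand): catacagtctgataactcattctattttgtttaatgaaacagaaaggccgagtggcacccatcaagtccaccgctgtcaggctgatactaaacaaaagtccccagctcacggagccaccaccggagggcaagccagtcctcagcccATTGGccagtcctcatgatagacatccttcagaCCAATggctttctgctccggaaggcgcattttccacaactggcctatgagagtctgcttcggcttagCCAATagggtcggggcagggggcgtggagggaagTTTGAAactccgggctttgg
Mki67 (chr7:135716330-135716629, minus strand): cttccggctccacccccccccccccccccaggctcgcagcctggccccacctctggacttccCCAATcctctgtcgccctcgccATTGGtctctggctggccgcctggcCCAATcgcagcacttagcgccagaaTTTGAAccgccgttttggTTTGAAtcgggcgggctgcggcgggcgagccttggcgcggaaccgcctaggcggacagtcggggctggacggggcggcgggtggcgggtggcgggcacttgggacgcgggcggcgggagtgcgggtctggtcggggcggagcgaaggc
Ube2c (chr2:164769679-164769978, plus strand): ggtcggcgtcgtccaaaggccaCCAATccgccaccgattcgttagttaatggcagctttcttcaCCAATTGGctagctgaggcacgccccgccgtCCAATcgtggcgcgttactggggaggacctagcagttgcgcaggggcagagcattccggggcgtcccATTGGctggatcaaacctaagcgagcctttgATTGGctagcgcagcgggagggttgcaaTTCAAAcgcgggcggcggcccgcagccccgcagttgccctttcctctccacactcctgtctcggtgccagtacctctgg
Nuf2 (chr1:169531415-169531714, minus strand): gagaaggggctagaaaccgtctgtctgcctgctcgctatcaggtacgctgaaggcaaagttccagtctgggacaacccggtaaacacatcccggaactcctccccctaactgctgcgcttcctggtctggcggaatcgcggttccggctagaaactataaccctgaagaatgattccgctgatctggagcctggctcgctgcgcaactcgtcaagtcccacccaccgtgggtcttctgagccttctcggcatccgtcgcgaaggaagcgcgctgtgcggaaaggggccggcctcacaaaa
The Mki67 window held 2 TTTGAA matches and 3 CCAAT matches, those of Cdca3 1 and 3, and those of Ube2c 1 and 6. The Nuf2 window held 0 of each.

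The identity lists shared less. The C/EBP-like motif TTGCNNAA was in 23.3% of the 30 windows of classical monocyte genes and in 3.45% of the 29 windows of patrolling monocyte genes, against 10.8% of all windows and 8.65% of those of tested genes. The PU.1-like motif GGAAGT was in 46.7% and 34.5%, against 23.8% and 29.6%. The NR4A motif AAGGTCA was in 0 of 29 patrolling windows and 3 of 30 classical windows, against 4.72% of all windows and 3.06% of those of tested genes. The window of Ngp, a granule gene of the classical list, is shown because it held 2 C/EBP-like matches. That of Cd300e is shown because it is the gene that rose most. The window of Vcan, a classical gene that fell more than Ngp, held 0 C/EBP-like and 0 PU.1-like matches and is not shown. Capitals mark TTGCNNAA and GGAAGT on either strand.
Ngp (chr9:110419558-110419857, plus strand): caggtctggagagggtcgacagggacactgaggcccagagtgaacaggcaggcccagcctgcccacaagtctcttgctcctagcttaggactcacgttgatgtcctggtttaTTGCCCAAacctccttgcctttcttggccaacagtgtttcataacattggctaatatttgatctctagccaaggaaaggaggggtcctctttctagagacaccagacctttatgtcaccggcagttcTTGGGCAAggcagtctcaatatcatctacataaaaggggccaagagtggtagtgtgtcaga
Cd300e (chr11:115061990-115062289, minus strand): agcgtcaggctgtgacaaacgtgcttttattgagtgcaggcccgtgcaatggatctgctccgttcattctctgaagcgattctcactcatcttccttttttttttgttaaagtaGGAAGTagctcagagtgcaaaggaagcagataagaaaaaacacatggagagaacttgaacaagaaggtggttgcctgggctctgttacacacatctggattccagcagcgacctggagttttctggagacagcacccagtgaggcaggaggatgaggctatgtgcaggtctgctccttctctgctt
The Cd300e window held 1 match to GGAAGT and none to TTGCNNAA or AAGGTCA.

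Markers of other blood cells were unequal between the subsets. The 14 neutrophil markers all fell and summed to 30939 to 33178 RPM in Ly6Chi samples and to 1387, 2570 and 1196 RPM in Ly6Clow replicates 1, 2 and 3. Among them Elane and Mpo belong to immature granulocytes and Ltf, Camp and Ngp to a later stage, whereas Cxcr2, a receptor of mature cells, was at 8.95 to 10.5 RPM and 2.59 to 2.81 RPM. Mpo, at 1.32 to 1.89 and 0.210 to 1.10 RPM, did not pass with any sample but Ly6Clow replicate 2 left out (adjusted p = 0.0772 to 0.142), nor by DESeq2 (adjusted p = 0.0886) or edgeR (adjusted p = 0.0557). All 12 natural killer cell markers fell, from a sum of 935 to 997 RPM to one of 133 to 208 RPM. All 10 tested T cell markers fell, from 356–383 to 33.0–48.7 RPM. Cd3e was at 44.5, 39.7 and 41.8 RPM and at 0.629, 2.47 and 1.33 RPM.

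Plasma cell markers (4 of 5 fell), plasmacytoid dendritic cell markers (6 of 7) and conventional dendritic cell markers (6 of 9) were lower as well. Their sums were 1183 to 1217, 318 to 335 and 318 to 347 RPM in Ly6Chi samples, and 393 to 571, 104.5 to 124.8 and 172 to 218 RPM in Ly6Clow samples. Eosinophil (3 of 4 fell, 1 rose), erythroid (3 of 4 fell), platelet (2 of 3 fell) and basophil markers (1 of 6 fell) each summed to at most 149 RPM in any sample. The part of such cells in the genes that fell was not tested. Fn1, Ccr2, F13a1 and Vcan are on none of these marker lists, which are short and do not show which cells their RNA came from.

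In the other direction, 6 of 9 red pulp macrophage markers rose, from a sum of 547 to 593 RPM to one of 2006 to 2388 RPM, most of it Treml4. C1qb, a subunit of the complement component C1q, rose by 1.18 and Cd5l, which encodes the protein AIM, by 0.92. Neither passed with all 29 samples in 1 limma fit (adjusted p = 0.149 and 0.145). The efferocytosis receptor Mertk was at 4.09 to 4.90 and 4.25 to 7.76 RPM (adjusted p = 0.104, and 0.0073 with a log2 fold change of 0.61 without Ly6Clow replicate 2). Kupffer cell markers summed to 35.5 to 39.5 RPM and 46.7 to 72.2 RPM, and 3 of 6 rose. Clec4f, which defines Kupffer cells, was at 0 RPM in all 6 samples. The rises among B cell markers (1 of 2) and endothelial markers (2 of 5, with 2 lower) came from Cd22 (2.70), Pecam1 (2.87) and Flt1 (1.05), while Ms4a1 was at 0 to 0.694 RPM and Cdh5 at 0.07 to 1.04 RPM.

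**Figure D3:**
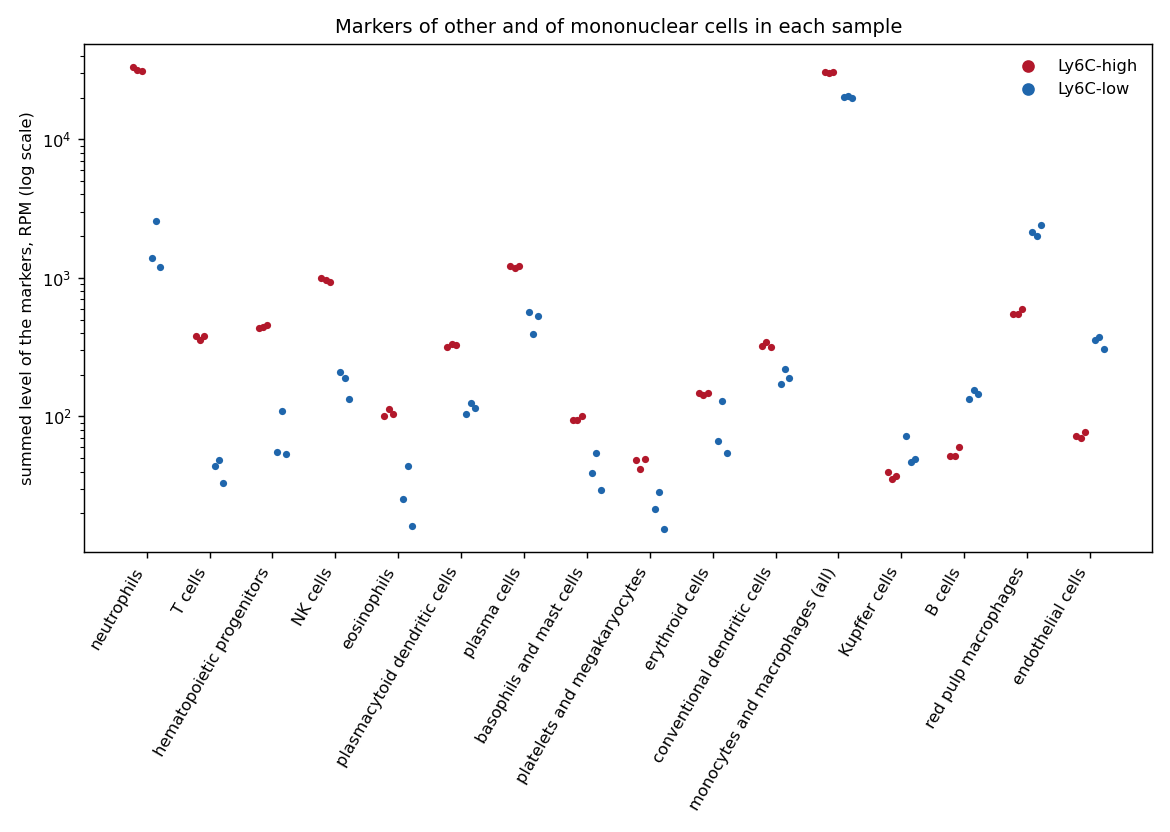
Summed RPM (log scale) of the markers of 16 cell types in each of the 6 samples, ordered by the ratio of the mean sums, with Ly6Chi samples in red and Ly6Clow samples in blue. Neutrophil markers, at 30939 to 33178 RPM against 1196 to 2570 RPM, differ most. Those of monocytes and macrophages as a whole lie at 30203 to 30534 RPM against 19816 to 20595 RPM. Most of this last sum is Lyz2, and of its 10 markers 4 rose and 3 fell.

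Chemokine genes and their receptors were more often lower, 19 of 34 against 6 higher, with a median of -0.66. Of the 15 ligands, 10 fell and 1 rose. Ccl2, the ligand of CCR2, was at 232, 224 and 242 RPM in Ly6Chi samples and at 37.5, 38.9 and 35.1 RPM in Ly6Clow samples (-2.47 ± 0.085, adjusted p = 1.79e-08). Cxcl10, which attracts activated T cells, went from 53.6, 61.7 and 51.0 RPM to 9.02, 11.9 and 12.9 RPM (-2.07 ± 0.151). Of the 19 receptors, 9 fell and 5 rose, with Ccr2 and Ccr1 among the former and Fpr1 and S1pr5 among the latter.

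Adhesion genes were more often higher, 15 of 28 against 6 lower, with a median of 0.64. Of 13 integrin subunits, 7 rose and 4 fell. Pecam1 (CD31) was at 43.1, 43.9 and 45.0 RPM in Ly6Chi samples and at 300, 324 and 266 RPM in Ly6Clow samples (2.87 ± 0.093, adjusted p = 1.53e-08). The laminin receptor subunit Itga6 fell by 1.74 and Amica1, a junctional adhesion molecule-like protein, by 1.58 on the log2 scale.

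Receptors for antibody and complement changed in both directions. Among 7 tested Fc receptor genes (9 listed, Fcgr4 not among them), Fcgrt, the neonatal Fc receptor (1.42), Fcer1g, the shared signalling chain (0.84), and Fcrl5 rose. Fcgr1 (-1.15), the inhibitory receptor Fcgr2b (-0.92) and Fcgr3 (-0.64) fell, the last with -0.57 without Ly6Chi replicate 1 or Ly6Clow replicate 1, under the fold threshold. Fcrl5 was at 0, 0 and 0.14 RPM in Ly6Chi samples, under the limit of 3 reads, and at 3.35, 2.88 and 1.61 RPM in Ly6Clow samples. Of 13 complement genes, 3 rose and 4 fell. The central component C3 was at 1791, 1841 and 1881 RPM and at 391, 458 and 398 RPM (-2.0 ± 0.085), and the receptor for C5a, C5ar1, rose by 1.46. Among MHC class II genes, 5 of 14 fell and 1 rose, led by the peptide exchange factors H2-DMb1 (-1.0) and H2-DMa (-0.98), the costimulator Cd40 (-1.0) and the regulator Ciita (-0.92). These 4 calls did not pass with all 29 samples in 1 fit (adjusted p = 0.126 to 0.357).

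Toll-like receptors, the sensors at the centre of the study, divided by member. Tlr13, which recognizes bacterial ribosomal RNA in the endosome, was at 47.1, 44.8 and 45.5 RPM in Ly6Chi samples and at 107, 86.5 and 74.5 RPM in Ly6Clow samples (1.08 ± 0.125, adjusted p = 5.08e-05). The other endosomal receptors were Tlr7 (0.73) and Tlr8 (0.78), which rose, and Tlr3 (-0.63) and Tlr9 (-0.64), which fell. Tlr9 was at 126 to 128 RPM in Ly6Chi and 68.7 to 76.6 RPM in Ly6Clow samples. The calls of Tlr3 and Tlr9 and that of Tlr7 were not stable to leaving out a sample. Without Ly6Clow replicate 1, Tlr3 (-0.49), Tlr9 (-0.58) and Tlr7 (0.54) no longer passed the fold threshold, and Tlr3 also did not pass without Ly6Chi replicate 1 (-0.47), Ly6Chi replicate 2 (adjusted p = 0.075) or Ly6Clow replicate 3 (adjusted p = 0.066). Over all 26 genes of the list, 8 rose and 7 fell. Cd180, a relative of the receptor for lipopolysaccharide, rose by 1.55 and the kinase Irak2 by 0.93, and the flagellin receptor Tlr5 fell by 2.10 and Tlr12 by 1.19 on the log2 scale.

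Of 43 cytokine genes, 16 were higher and 9 lower. Of 21 receptors 10 rose and 4 fell, led by Tgfbr1 (1.83). The anti-inflammatory cytokine Il10 was at 2.64, 1.04 and 2.03 RPM in Ly6Chi samples and at 4.61, 5.56 and 7.52 RPM in Ly6Clow samples (1.38 ± 0.242, adjusted p = 0.000891). Tnf was at 0.486 to 1.26 RPM and 1.48 to 2.20 RPM (0.60, adjusted p = 0.0375), a call lost with any sample but Ly6Clow replicate 3 left out (adjusted p = 0.0623 to 0.177) and by DESeq2 (adjusted p = 0.101) or edgeR (adjusted p = 0.0518). Il6 was at 1.46 to 2.03 and 0.913 to 1.65 RPM (adjusted p = 0.504). Ifnb1, at 0.486 to 0.971 and 0.137 to 0.211 RPM, did not reach the level for a test. Hepatocyte growth factor, Hgf, rose by 1.52. Vegfa (-2.30), oncostatin M, Osm (-2.17), Tnfsf14 (-1.60) and Tnfsf8 (-1.51) fell.

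Interferon-stimulated genes were lower in Ly6Clow macrophages, 23 of 33 tested against 1 higher, with a median of -0.83. The antiviral enzyme Rsad2 was at 35.7, 35.6 and 36.0 RPM in Ly6Chi samples and at 6.08, 2.75 and 6.11 RPM in Ly6Clow samples (-2.55 ± 0.229, adjusted p = 7.84e-06). The deISGylase Usp18 (-2.29), Oasl2 (-1.99), Mx2 (-1.97), Oasl1 (-1.84), Mx1 (-1.05) and Oas1a (-0.80) fell, and the sensor Ifih1 was at 57.7 to 87.5 and 48.3 to 55.8 RPM (adjusted p = 0.168). The gene that rose was the nucleic acid sensor Zbp1 (0.63, and 0.58 without Ly6Chi replicate 2, under the fold threshold). Plasmacytoid dendritic cell markers, whose sums are given above, moved with these genes, and their part was not tested. Bst2 (-1.19) is on both lists.

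Lipid handling genes were more often higher, 11 of 25 against 6 lower, with a median of 0.44. Of 15 targets of liver X receptors or genes of efflux, 8 rose and 4 fell. Beside Fabp4 and Cd36, the desaturase Scd1 was at 1.73, 0.555 and 1.4 RPM in Ly6Chi samples and at 33.9, 26.0 and 23.7 RPM in Ly6Clow samples (3.83 ± 0.223). The phospholipid transfer protein Pltp went from 108, 105.4 and 99.6 RPM to 442, 474 and 479 RPM (2.29 ± 0.081). The cholesterol exporters Abca1 (1.57) and Abcg1 (1.4), singled out here after their values were seen, rose as well. The scavenger receptor Msr1 (-2.32), the endothelial lipase Lipg (-3.26) and the receptor Axl (-0.62) fell, Axl with values of -0.55 without Ly6Chi replicate 3 and -0.50 without Ly6Clow replicate 2, under the fold threshold. Of 17 sterol synthesis genes, 1 rose and 3 fell, among the latter Mvd (-1.09).

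**Figure D4:**
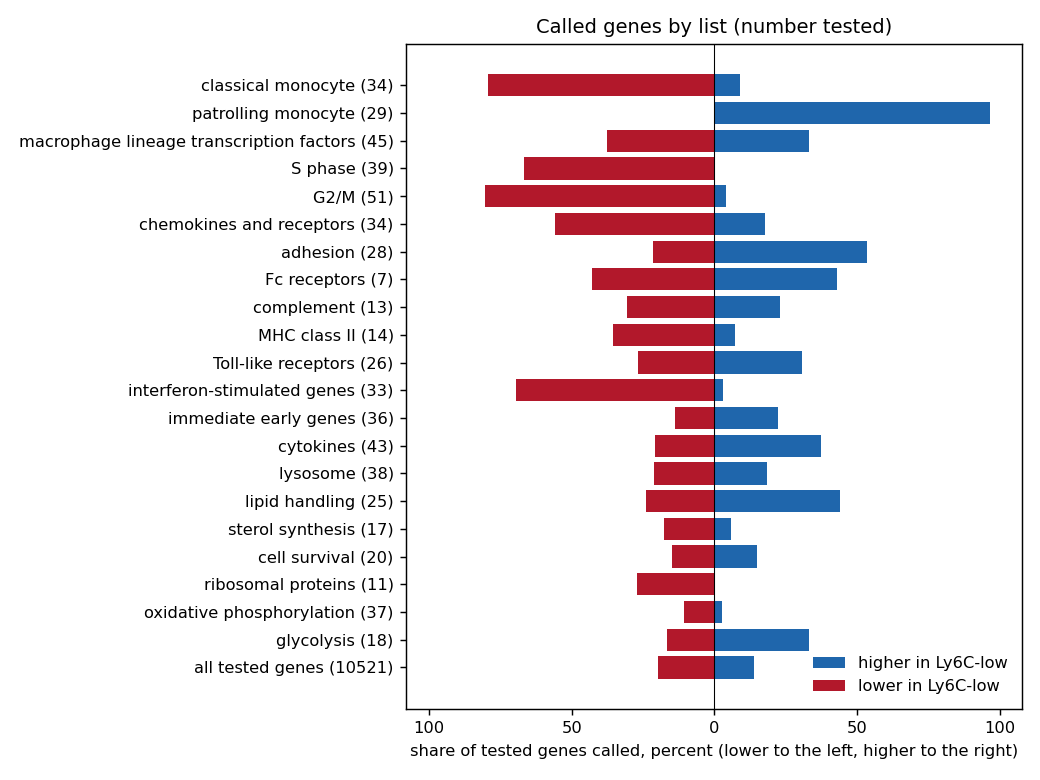
Share of the tested genes of each list called higher (blue, to the right) or lower (red, to the left) in Ly6Clow macrophages, in percent, with the number tested in brackets. The bar at the bottom gives all 10521 tested genes, 13.8% higher and 19.8% lower, and the patrolling, classical, G2/M, S phase and interferon-stimulated lists reach farthest from it.

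Of 38 lysosomal genes, 7 were higher and 8 lower, near the shares of 13.8% and 19.8% over all tested genes. The tetraspanin Cd63 (-3.0), the cholesterol carrier Npc2 (-1.71), the nucleoside transporter Slc29a3 (-1.82) and cathepsins W (Ctsw, -2.55) and G (Ctsg, -2.08) fell. The phosphatase Acp5 (2.14) rose. Ctsw is known from cytotoxic lymphocytes and Ctsg from granules. Of 18 glycolysis genes 6 rose and 3 fell, Eno3 and the lactate exporter Slc16a3 (1.17) among the former and the glucose transporter Slc2a3 (-1.71) and Hk3 (-1.09) among the latter. Oxidative phosphorylation genes had few calls (1 of 37 higher, 4 lower). Of 11 ribosomal protein genes 0 were higher and 3 lower, and of 20 cell survival genes 3 were higher and 3 lower. The shares over all tested genes were 13.8% and 19.8%.

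Among 36 immediate early genes, which answer stress within minutes, 8 rose and 5 fell, with a median of 0.11. Over all tested genes 13.8% were higher and 19.8% lower. Dusp5, Nr4a1 and Klf2, which rose, are also on the patrolling list. Dusp5 was at 40.8, 42.1 and 40.8 RPM in Ly6Chi samples and at 244, 291 and 230 RPM in Ly6Clow samples (2.74 ± 0.103). The heat shock gene Hspa1b went from 8.95, 11.8 and 9.38 RPM to 39.3, 38.9 and 32.0 RPM (1.91), and Maff (-1.28) and Egr3 (-1.03) fell. The summed level of the list was 24529 to 24674 RPM in Ly6Chi samples and 23807 to 29862 RPM in Ly6Clow samples, which overlapped.

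Subsets that the labels give with the same gates were sorted from the wild-type liver, 3 samples of each with 11175843 to 12956956 reads, and share no sample with the spleen. The livers were processed in a heated dissociator and the spleens were minced with glass slides. The study's methods describe depletion with antibodies for the spleen alone, and for liver cells they describe gates on F4/80 and CD11b and name no staining for Ly6G or NK1.1, so that organ, preparation and sort cannot be told apart. Replicates 2 and 3 of both hepatic subsets held 28.95 to 52.03 RPM of 4 Y-linked genes, against 0 to 0.14 RPM in the other hepatic and all splenic samples. The female-specific RNA Xist was at 476 to 695 RPM in the 6 splenic samples. The part of sex in the organ differences was not tested. In 1 fit of the 12 samples, 1033 genes (8.37% of 12339) were higher and 841 (6.82%) lower in hepatic Ly6Clow macrophages. The difference between the organs passed the test in 2262 genes, 958 (7.76%) with a more positive and 1304 (10.6%) with a more negative fold change in the spleen. The balance moved with the scaling and the fit, to 439 and 1805 genes with RPM as deposited and to 342 and 680 with all 29 samples in 1 fit.

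Genes higher in splenic Ly6Clow macrophages mostly pointed the same way in the liver. Of the 1451, 76.2% had a positive fold change in the liver, 377 (26.0%) were also called higher there and 11 (0.758%) were called lower. Of the 2080 genes lower in the spleen, 63.0% had a negative fold change in the liver, 531 (25.5%) were called lower there and 219 (10.5%) were called higher. Of these 219 genes, 25 were on the G2/M list and 16 on the S phase list. In the liver 27 of 51 G2/M genes were higher and 1 lower, with a median of 0.84, and 43 of 51 differed between the organs with the more negative value in the spleen. For S phase genes, 28 of 39 did, and 19 were higher in the liver.

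Mki67 shows the reversal. In the liver it was at 6.02, 11.3 and 16.2 RPM in Ly6Chi samples and at 20.7, 24.8 and 26.8 RPM in Ly6Clow samples, so that no groups overlapped in either organ. The hepatic rise of Mki67 passed narrowly (1.02, limma, adjusted p = 0.0453). The difference of Mki67 between organs was -4.69 ± 0.469 on the log2 scale (limma interaction, adjusted p = 1.36e-05). Cdca3 (-5.57), 2810417H13Rik, the replication clamp-associated factor now named Pclaf (-5.15), and Iqgap3 (-5.12) were among the 4 most negative differences. The fourth, Cd207 (-5.67), was at or under 3 reads in every splenic sample and at 39.8 to 64.2 RPM in hepatic Ly6Clow samples, so it reports on the liver alone.

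**Figure D5:**
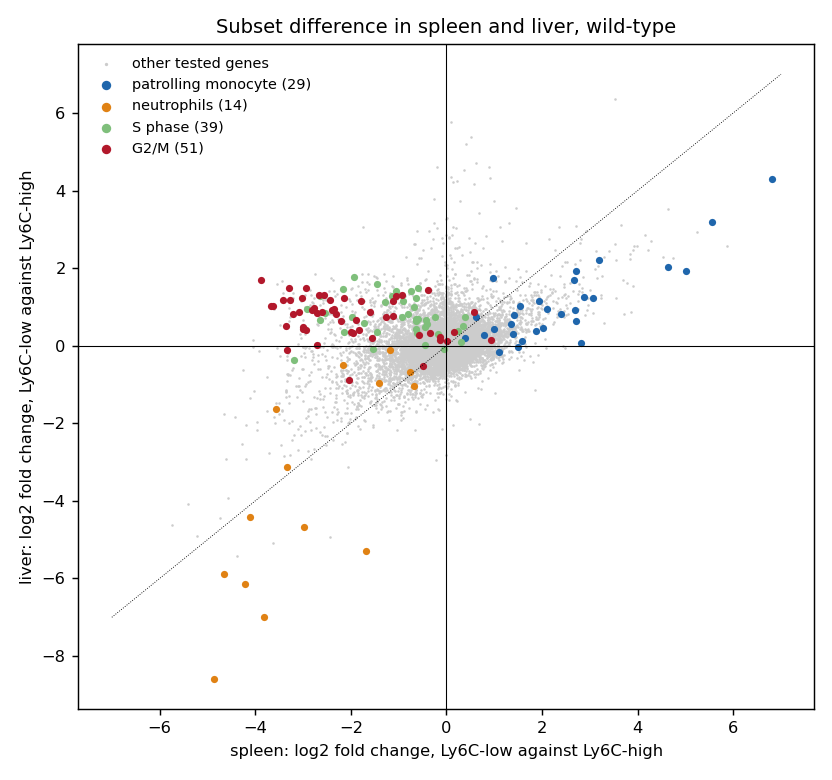
Log2 fold change of Ly6Clow against Ly6Chi macrophages in the spleen (x axis) and liver (y axis), with 1 point for each of 12339 tested genes and 4 lists coloured. Most G2/M and S phase genes lie at the upper left, lower in the spleen and higher in the liver, whereas patrolling genes lie to the right and neutrophil markers at the lower left (equal values lie on the dotted line).

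Patrolling genes had smaller fold changes in the liver. Of the 29 patrolling genes, 17 were called higher in the liver and 0 lower, the liver median was 0.81, and 18 differed between the organs with the larger value in the spleen, against 1 with the smaller. The genes of the next sentences other than Nr1h3 were chosen for their splenic fold changes or for this difference, so a smaller value in the liver is in part built into the choice. Dusp16 was at 57.2 to 79.1 RPM in hepatic Ly6Chi and 429 to 496 RPM in hepatic Ly6Clow samples, a difference between organs of 3.29 ± 0.206 (adjusted p = 4.43e-07). Cd36, at 84.7 to 115 and 388 to 429 RPM in the liver, differed by 3.09 ± 0.177. Cd300e (2.51), Fabp4 (2.38) and Lilra5 (2.30) differed likewise. Nr1h3 was at 42.5 to 51.9 RPM in hepatic Ly6Chi and 36.5 to 50.6 RPM in hepatic Ly6Clow samples, which overlapped, a difference of 2.01 ± 0.210 (adjusted p = 2.07e-05).

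Classical monocyte genes were lower in Ly6Clow macrophages of both organs, 27 of 34 genes in each, and 8 differed with the more positive and 7 with the more negative value in the spleen. Ccr2 fell less in the liver, from 352–558 to 142–219 RPM, and differed by -1.98 ± 0.260 (adjusted p = 0.000123). F13a1 did not pass (-1.13, adjusted p = 0.0825) unless splenic Ly6Clow replicate 2 was left out (-1.62, adjusted p = 0.000264). Vcan (-0.30) and Jchain (-0.29) did not pass either. Fcnb was at 0 RPM in all hepatic Ly6Clow samples, and no difference is given. With the sorts described differently, neutrophil markers summed to 433 to 2616 RPM in hepatic Ly6Chi samples, against 30939 to 33178 RPM in splenic ones, and to 82.6 to 97.3 RPM in hepatic Ly6Clow samples. Ngp (3.73), Retnlg (3.61) and S100a9 (3.18) were 3 of the 4 most positive differences. That of S100a9 did not pass without splenic Ly6Chi replicate 2 (adjusted p = 0.0514), splenic Ly6Clow replicate 2 (adjusted p = 0.0579) or hepatic Ly6Chi replicate 3 (adjusted p = 0.0515). Ngp was at 0 to 0.166 RPM in hepatic Ly6Clow samples, under 3 reads, so its fitted value depends on the added 1. Interferon-stimulated genes were lower in both organs, 28 of 33 in the liver.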

How the data were processed

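Each of the 29 samples was sequenced on an Ion Proton after amplification with 1 AmpliSeq amplicon per gene, and the authors deposited 1 table of RPM values (reads scaled to a fixed total per sample) for 23930 genes, mapped to mm10. Per the labels, the 6 samples used here were wild-type splenic Ly6Chi and Ly6Clow cells. The RPM are multiples of 1 read, and 100.0% of the values gave whole reads within 0.1. Genes were kept where 3 or more compared samples reached 1 RPM, the values were scaled with relative log expression factors, and log2(value + 1) was tested with limma 3.58.1 (R 4.3.3) with a mean-variance trend, two-sided, with Benjamini-Hochberg adjustment. Calls needed >1.5-fold and an adjusted p below 0.05. The liver comparison used 1 fit of 12 samples with an interaction of organ and subset. Every adjusted p comes from these fits. An exact permutation test of 3 against 3 samples cannot go below p = 0.1 and was not used.

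Alternatives were edgeR 4.0.16 and DESeq2 1.42.0 on the recovered reads, other scaling, added values, filters and thresholds, the replicate block, all 29 samples in 1 fit, and each sample left out. Same-numbered samples of the spleen were tested unpaired. Correlations of their deviations from the group means were 0.009, 0 and -0.016, which cannot show whether they came from the same mice. Genes named are the 12 highest and 12 lowest with no overlap and a mean of at least 10 RPM in the higher group, the members of the sort, classical, patrolling and transcription factor lists, up to 6 called members of each other list, genes the study's text names, and for the organ difference 5 genes from each end and the 4 most positive and 4 most negative differences. A few others are named as whole small groups or as said in the text. The comparison, the gene lists and the markers were chosen with earlier results of these data known. Gene positions are from GENCODE (mm10), and promoter windows from RefSeq (GRCm38.p6). Tests were tried on simulated data. Some genes, among them Ly6c1 and Ly6c2, were not analysed here, and a few listed genes are not reported here. The deposited table holds no p-values or fold changes.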

Additional observations from a re-analysis of the deposited data

Results flagged for a closer look

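For the 17 named genes listed here, the difference between the subsets differed between spleen and liver in the fit of 12 samples. With all 29 samples in 1 limma fit, some of these did not pass. They were C1qb (adjusted p = 0.301), S100a9 (0.109), Ccr2 (0.0793), Ngp (0.0728) and Fabp4 (0.0553). Values are the interaction term of the limma fit over 12 samples (log2, spleen minus liver). In 9 of the 17 genes the value was more positive in the spleen. These were Ngp (3.73), Retnlg (3.61), Dusp16 (3.29), S100a9 (3.18), Cd36 (3.09), Cd300e (2.51), Fabp4 (2.38), Lilra5 (2.30) and Nr1h3 (2.01). In 8 it was more negative. These were Cd207 (-5.67), Cdca3 (-5.57), 2810417H13Rik (-5.15), Iqgap3 (-5.12), Mki67 (-4.69), Cd5l (-3.71), Ccr2 (-1.98) and C1qb (-1.55). Cd5l was at 0.895 to 1.62 RPM in hepatic Ly6Chi and 46.6 to 70.7 RPM in hepatic Ly6Clow samples, and C1qb at 73.0 to 104 and 433 to 761 RPM.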

How the results depend on the processing

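The count of genes higher and lower in splenic Ly6Clow macrophages was 595 and 1247 at >2-fold, and 3085 and 3149 at an adjusted p below 0.1 with no fold threshold. DESeq2 gave 1500 and 2067 genes and edgeR 1547 and 2121, of which 3437 (97.3% of the limma calls) and 3485 (98.7%) were shared with limma. Whether same-numbered samples came from the same mice is not stated, and with the replicate block the counts were 1457 and 2094. Leaving out 1 sample gave 1342 to 1476 higher and 1694 to 2143 lower genes. It gave 26 to 27 lower classical, 26 to 28 higher patrolling, 21 to 25 lower S phase, 38 to 42 lower G2/M and 22 to 24 lower interferon-stimulated genes, 13 lower neutrophil and 12 lower natural killer markers, 13 to 15 higher adhesion, 11 to 12 higher lipid and 16 to 20 lower chemokine genes. The organ difference counts were 439 more positive and 1805 more negative genes with RPM as deposited, 342 more positive and 680 more negative with all 29 samples in 1 fit, and 709 to 1246 and 981 to 1512 with 1 sample left out. The cause of these moves was not tested.

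Signs turned in values of 3 named genes, and none of these values was called. Lyz1 was at -0.09 with RPM as deposited and between -0.02 (without Ly6Clow replicate 1) and 0.15 with 1 sample left out, Nr4a3 between -0.13 (without Ly6Clow replicate 2) and 0.36, and the organ difference of Jchain at 0.37 with 0.1 RPM added, 0.32 by DESeq2 and 0.29 by edgeR. With RPM as deposited, Clec4a3 (0.49), Fpr2 (0.52), Gsdmd (0.51), Hjurp (0.44), Klf4 (0.45), Marco (0.89), Tnf (0.52) and Zbp1 (0.48) no longer passed and Alox5ap (-0.69) and the organ difference of F13a1 (-1.39) passed as lower. With all 29 samples in 1 fit, 41 values of named genes no longer passed. Genes near 3 reads, at 0.206 to 0.211 RPM, are limited by depth.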

Other observations

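The vascular growth factors moved in opposite directions. Vegfc was among the 12 genes that rose most (4.26) while Vegfa fell by 2.30 on the log2 scale, from 10.5–11.8 to 0.983–1.92 RPM. Among cell survival genes, Bcl2 (1.37), the p53 target Bbc3 (1.03) and the pore-forming Gsdmd (0.65) rose, and Bad (-1.28), the inflammasome sensor Nlrp3 (-0.71) and Bcl2l11 (-0.68) fell. The monocyte growth factor receptor Csf1r rose by 1.19 and Cd68 by 0.94, whereas the lipopolysaccharide co-receptor Cd14 fell by 0.86 on the log2 scale. The red pulp macrophage factor Spic (0.99), the heme oxygenase Hmox1 (0.90) and the scavenger receptor Marco (0.97) rose, the last not passing without Ly6Chi replicate 1 (adjusted p = 0.112) or Ly6Chi replicate 3 (adjusted p = 0.142).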
